A study of Oryza sativa with 3 samples.

Results

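The set described here holds 114 probe sets of a rice expression array that read high on replicate 3 alone among 3 shoot-tip samples, out of 57258 non-control probe sets. A probe set is a group of short probes read together for a transcript. Members were chosen by their measured values: the log2 value on replicate 3 exceeded the larger of the values on replicates 1 and 2 by more than 1. That difference is called the excess below. Of 117 probe sets past this threshold, or 0.204% of those measured, 3 were left out, those of PDC1 (LOC4339066), DREB1A (LOC4347620) and OsC3H37 (LOC4339379). Because the measured values chose the members, their excess is a description and has no test. Each replicate is a single array, so no value on replicate 3 has a replicate check of its own.

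All 3 samples belong to the group CK shoot, and the meaning of CK is not stated in the labels. They came from shoot tips of seedlings of the rice cultivar Hitomebore raised first for 2 days in darkness at 28 °C and then for some 48 h under greenhouse light at 26 °C, on a cycle of 16 h light and 8 h dark. The protocol speaks of a second genotype, which was not analysed here. The labels call the samples biological replicates, and the number of plants behind each is not stated. No genotype, treatment or time point differs between the arrays, so the differences below lie within a single group and compare samples, not conditions. In such bulk samples, more cells of a type and more RNA per cell cannot be told apart.

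Most members carry only a locus number or no gene at all in the annotation. Whether the few with a short name share a process was not tested. Calmodulin-like proteins bind calcium and pass calcium signals on in plant cells. WRKY proteins are transcription factors known for their part in defence and stress responses. Cinnamoyl-CoA reductase takes part in making the monomers of lignin. Genes that arose by tandem duplication often lie side by side and share sequence, so short probes can bind transcripts of several copies. On this array, IDs ending in _x_at or _s_at mark probe sets of that kind. Brightness also depends on the affinity of the probes, so levels of different probe sets are not ranked against each other.

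The arrays agreed closely as a whole, and replicate 3 had the largest number of probe sets standing apart. Across probe sets, which do not count as independent replicates, Pearson's r reached 0.993 between replicates 3 and 1, 0.994 between replicates 3 and 2, and 0.996 between replicates 1 and 2. Against the 117 probe sets high on replicate 3 alone, 20 (0.0349%) were high by more than 1 log2 on replicate 1 alone and 30 (0.0524%) on replicate 2 alone. Probe sets low by more than 1 log2 numbered 28 (0.0489%) on replicate 3 alone, 6 (0.0105%) on replicate 1 alone and 10 (0.0175%) on replicate 2 alone. Over 2 log2, 44 probe sets were high on replicate 3 alone, 2 on replicate 1 alone and 24 on replicate 2 alone. At that size replicate 2 came closer to replicate 3 in number, and replicate 1 did not. Over 4 log2 there were 6 on replicate 3 alone, 0 on replicate 1 alone and 5 on replicate 2 alone. Control probe sets on replicate 3 also stood apart. The 4 controls for 18S, 25S and 28S ribosomal RNA averaged 9.59 on replicate 3, against 12.05 on replicate 1 and 11.73 on replicate 2, and the 27 hybridization controls, bacterial and phage transcripts added before hybridization, averaged 10.31 against 11.07 and 10.80. The 36 poly-A spike probe sets averaged 7.35 against 7.23 and 7.28, and the difference between 3' and 5' actin probe sets, a measure of RNA integrity, was 2.40 against 2.41 and 2.32. The part of these control differences in the high readings of the members was not tested.

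The members fell into a group that was near background on the other arrays and a larger group that was detected on every array. The highest of 17 Tag control probe sets was taken as the ceiling of background: 4.97 on replicate 3, with 4.98 for replicate 1 and 4.88 for replicate 2. A fold against a value under it was computed against the ceiling and is given as at least that fold. Of the 114 members, 72 lay above the ceiling on all 3 arrays, as did 46.8% of all non-control probe sets. A further 31 members lay above it on replicate 3 and below it on both other arrays. Another 9 lay below it on replicate 1 or on replicate 2 but not on both. For these 2 patterns the share over all probe sets is not given here. The remaining 2 members lay below the ceiling on all arrays, so they have no interpretable fold. The members' median was 7.63 on replicate 3 (lowest 4.88, highest 11.10), against 5.50 on replicate 1 (3.21 to 9.91) and 5.69 on replicate 2 (3.12 to 9.61). The median excess was 1.52 log2, or 2.87-fold, with 61 members over 1.5 log2, 42 over 2, 20 over 3 and 5 over 4. None of the members was among the brightest probe sets of the array, which reached 14.64 on replicate 3.

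Replicates 1 and 2, which the rule did not set against each other, read much the same for most members. The median absolute difference between them was 0.16 log2 over the members and 0.12 log2 over all non-control probe sets. For 68 members they lay within 0.2 log2 of each other, and the largest difference was 0.88 log2. Replicate 1 was the higher of the pair for 44 members, replicate 2 for 66, and 4 were tied, as the summary method used on these arrays can give. The members just inside the threshold were OsAffx.32295.1.S1_at, Os.37255.1.A1_at and Os.4670.1.S1_at, with excesses of 1.013, 1.016 and 1.017. Just outside it lay Os.47389.1.S1_at, Os.50366.1.S1_x_at and Os.12069.1.S1_at, with 0.994, 0.994 and 0.993.

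The members with a single gene, 71 in all, were assigned to 63 genes. With the left-out genes these made 66 of the 17905 genes on the array (0.369%). Of the 63 genes, 6 have a short name among the gene synonyms, and they include a calcium sensor, a transcription factor and enzymes. On replicate 3 CML15 (LOC4338633), a calmodulin-like protein, had 7.53, against 4.56 on replicate 1 and 4.70 on replicate 2. Both lower values lay below background, so CML15 was at least 5.85-fold higher on replicate 3. WRKY76 (LOC4347069), a WRKY transcription factor, read 6.04 on replicate 3, against 4.47 and 4.19, at least 2.08-fold higher. SMR1 (LOC4349289) was detected on all arrays and read 8.46 on replicate 3, against 6.94 and 6.47, a 2.86-fold excess over the larger. PDRP1 (LOC4343450), the regulatory protein that phosphorylates and dephosphorylates pyruvate, orthophosphate dikinase, read 8.38 on replicate 3, against 7.34 and 7.27. Its excess of 1.04 log2 was among the smallest of the set and was 0.90 when the arrays were quantile normalized once more. CDKE;1 (LOC4349519), a cyclin-dependent kinase of the E class, read 5.79 on replicate 3, against 4.36 and 4.19, at least 1.75-fold higher. CCR1 (LOC4331085), a cinnamoyl-CoA reductase, read 5.52, against 4.42 and 3.91, at least 1.45-fold higher. These last 2 genes passed the threshold on values below background, and their excess was 0.81 and 0.54 log2 with such values set to the ceiling.

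Few other genes matched by name to these families stood higher on replicate 3 to this extent. The lists were drawn up after the members were seen. Genes of these families listed without such a name were not looked at, so the values below do not describe whole families. Of 23 calmodulin-like genes on the array, read from the probe set with the highest mean of each gene, CML15 alone exceeded 1 log2, 8 were highest on replicate 3 (49.9% of all genes were), and the median excess was -0.07. Among 5 genes named WRKY, WRKY76 alone exceeded 1 log2 and the median was 0.10. No gene of 11 cyclin-dependent kinases did so, and their median was 0.01 (-0.03 when quantile normalized once more), with CDKE;1 read there from its brighter probe set. Over all 17905 genes read in this way, 60 (0.335%) exceeded 1 log2 and the median excess was 0.00. These medians follow the scaling: with the hybridization controls set equal on the arrays, that of all genes was 0.55, of calmodulin-like genes 0.43, of WRKY genes 0.59 and of cyclin-dependent kinases 0.61.

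A run of adjacent genes on chromosome 6 held more members than any other group of neighbouring genes. In the gene order of assembly ASM3414082v1, used here only for which genes neighbour each other, 7 protein-coding genes run from LOC4340079 to LOC4340085, and 8 member probe sets were assigned to them. All 4 probe sets of LOC4340083 were members. Its probe set Os.38638.1.S1_at read 10.19 on replicate 3, against 6.55 on replicate 1 and 6.33 on replicate 2, a 12.5-fold excess. OsAffx.27459.3.S1_x_at read 9.77, against 5.52 on both other arrays, a 19.0-fold excess. The remaining pair, OsAffx.27459.3.S1_at and Os.38638.3.S1_x_at, read 9.41 and 9.34 on replicate 3, with excesses of 16.0-fold and 10.6-fold. Each of the 4 thus lay above background on every array and stood more than 10-fold higher on replicate 3.

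Of the other genes in this run, 2 had probe sets of their own, all of them members. LOC4340081, LOC4340082, LOC9271477 and LOC4340085 had none. LOC4340084 read 10.20 on replicate 3, against 6.87 on replicate 1 and 6.62 on replicate 2, a 10.1-fold excess. LOC4340079 read 6.90 on replicate 3, against 4.97 and 5.35, a 2.93-fold excess, and its other probe set, Os.37255.1.A1_at, read 4.88, against 3.75 and 3.86, below background on all arrays. The member with the largest excess of the whole set, Os.38638.4.S1_s_at, is assigned to both LOC4340085 and LOC4340079 and read 9.49, against 4.73 and 4.16, at least 22.8-fold higher. The 8 probe sets share only 3 ID stems, Os.38638, OsAffx.27459 and Os.37255, and several are of the _x_at or _s_at kind. How many of these genes contributed to the signal can therefore not be told apart. No gene name or function is listed for any of them.

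Member genes also lay near each other at 4 other places. On chromosome 4, LOC4337127, LOC4337129 and LOC4337133 are consecutive among the genes on the array. LOC4337133 read 9.83 on replicate 3, against 5.88 on replicate 1 and 5.95 on replicate 2, a 14.7-fold excess. LOC4337127 read 9.88, against 7.06 and 6.98, a 7.08-fold excess. Between them LOC4337129 read 7.87, against 6.48 and 5.60, a 2.62-fold excess with a wide gap between replicates 1 and 2. All 3 were detected on every array.

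On chromosome 9, LOC4347412, LOC4347408 and LOC9271885 lie within 5 consecutive genes of the array. LOC4347412 read 8.65 on replicate 3, against 4.43 on both other arrays, at least 12.7-fold higher. LOC4347408 read 6.91, against 3.67 and 3.90, at least 3.81-fold higher, and LOC9271885 read 7.75, against 6.63 and 6.36, a 2.18-fold excess. The 2 genes between them did not pass the threshold, with excesses of 0.03 and 0.62 log2, the second of these below background on all arrays.

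On chromosome 7, LOC4344255 and LOC4344266 are 10 genes of the array apart. LOC4344255 read 9.07 on replicate 3, against 6.39 and 6.44, a 6.16-fold excess, and its second probe set read 6.03, against 3.38 and 3.33, at least 2.07-fold higher. LOC4344266 read 8.41, against 5.28 and 4.95, an 8.75-fold excess. The 9 genes between them had excesses from -0.09 to 0.97 log2, and the highest of these, LOC4344259, read 9.54, against 8.57 on both other arrays. On chromosome 6, LOC4341426 read 6.45 on replicate 3, against 3.89 and 3.96, at least 2.78-fold higher. Nearby LOC4341420 read 6.17, against 4.78 and 5.14, a 2.04-fold excess, and the 3 genes between them ranged from -0.37 to 0.21 log2. In these last 3 groups genes between the members did not pass the threshold, while on chromosome 4 and in the first run on chromosome 6 no array gene lies between them.

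In all, 13 of the 63 member genes (20.6%) had another member within 10 genes of the array, against 1098 of the other array genes (6.18%) with a member that near. Of genes high on replicate 1 alone, 4 of 11 had another such gene within 10, as did 4 of 11 of those high on replicate 2 alone, so nearness was not particular to replicate 3. Member genes were found on all 12 chromosomes, from 5 of 2635 array genes (0.190%) on chromosome 1 to 9 of 1397 (0.644%) on chromosome 6.

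Several genes outside these groups were near background on replicates 1 and 2 and well above it on replicate 3. LOC4332595 read 9.25 on replicate 3, against 4.69 and 4.88, at least 19.3-fold higher, the largest excess of a probe set with a single gene. LOC9268371 read 7.63, against 4.63 and 4.58, at least 6.28-fold higher. LOC4333962 read 7.56, against 4.35 and 4.39, at least 5.97-fold higher. All 3 were clearly above background on replicate 3. LOC4342642 read 7.47, against 3.96 and 4.11, at least 5.62-fold higher. LOC4335304 read 6.96, against 4.10 and 4.12, at least 3.94-fold higher, and LOC4338958 read 6.80, against 3.93 and 3.72, at least 3.53-fold higher. For each of these 6 genes replicates 1 and 2 lay below the ceiling, so the true differences may be larger than these bounds.

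Other members were detected on all arrays and stood several-fold higher on replicate 3. LOC4339960 read 9.53 on replicate 3, against 5.86 and 5.74, a 12.8-fold excess. LOC4344575 read 9.41, against 5.97 and 5.88, a 10.8-fold excess, while its second member probe set read 5.17, against 3.92 and 4.11. LOC4336787 read 9.20, against 5.38 and 5.89, a 9.95-fold excess. In these 3 genes the gap to replicate 3 was several times the gap between replicates 1 and 2. They were chosen by a large gap to replicate 3, so this describes the choice and is no check of it. LOC4334477 read 9.03, against 6.20 and 6.01, a 7.10-fold excess. LOC4324844 read 10.70, against 7.87 and 7.90, a 6.99-fold excess, and LOC4341874 read 8.42, against 5.52 and 5.67, a 6.76-fold excess. LOC4324844 was thus already well above background in the other samples.

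Smaller excesses were seen in LOC4329558, which read 7.48 on replicate 3, against 4.73 and 5.02 (5.52-fold), and in LOC4343600, which read 8.68, against 6.39 and 6.33 (4.89-fold). LOC4351721 read 8.35, against 5.65 and 6.13, a 4.64-fold excess. The next in order were all above background on replicate 3, and their other values lay mostly above it as well. LOC4329329 read 9.03, against 7.13 and 6.77, a 3.74-fold excess, and LOC9269768 read 10.75, against 8.78 and 8.96, a 3.47-fold excess. LOC4334643 read 6.80, against 5.05 and 4.80, a 3.36-fold excess, and LOC4324374 read 9.54, against 7.42 and 7.80, a 3.33-fold excess. A further 18 member genes, not given one by one, had excesses from 1.02 to 1.60 log2, with values on replicate 3 between 5.04 and 10.83. Of these 18 genes, 11 were above background on all arrays.

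Some member genes were read by several probe sets. Of the other probe sets of these genes, described next, 11 have the ID stem of a member of the same gene and may share probes with it, so they are not separate readings. Of the 15 member genes with several probe sets, 6 had more than 1 member, among them LOC4325617. Its member probe sets read 7.74 and 8.40 on replicate 3, against 5.36 and 6.22 on replicate 1 and 5.36 and 6.53 on replicate 2. Both are of the _x_at kind and may bind transcripts of several copies. The other probe set of LOC4325617 read 4.37, against 3.70 and 3.67, below background on all arrays. LOC4348591 had 2 members with the same ID stem, which read 7.90 and 6.79 on replicate 3, with excesses of 1.51 and 1.23 log2. The rule did not choose 17 other probe sets of 10 member genes. Of these, 13 (76.5%) were highest on replicate 3, against 48.8% of the 7935 probe sets of other genes with several probe sets, and their median excess was 0.19 log2, against 0.00. That median was 0.07 when the arrays were quantile normalized once more, 0.09 with a floor at the ceiling and 0.68 with the hybridization controls set equal. Of the 6 with another stem, 4 were highest on replicate 3. Above background on some array were 13 of them, and 11 of these were highest on replicate 3, against 52.6% of such probe sets of other genes.

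The size of the difference was not the same between probe sets of a gene. LOC4335304, given above, had other probe sets that read 7.49 on replicate 3, against 6.63 and 6.62, and 7.40, against 7.20 and 7.08. LOC4347243 had a member with an excess of 1.11 log2 and other probe sets with 0.60 and 0.49, all highest on replicate 3. LOC4343600 had another with 0.70, beside 2.29 for its member, and one with 0.52 that lay below background on all arrays. LOC4333004 had 1.12 in its member and 0.61, 0.10, 0.09 and 0.03 in the others. Those above background were all highest on replicate 3 in these genes. Their differences had to be smaller than in the members, because the rule takes in every probe set over 1 log2.

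In CDKE;1, LOC4329370 and LOC4346226 the only other probe set, above background on all arrays, read close to level or not highest on replicate 3. CDKE;1 (LOC4349519) had a second, brighter probe set that read 9.04 on replicate 3, against 9.09 and 9.03. LOC4329370 read 9.61, against 7.69 and 8.07, from its member, but 10.03, against 10.27 and 9.96, from its other probe set. LOC4346226, with 1.13 log2 in its member, had 0.05 in the other. LOC4337457 had a member of the _x_at kind with an excess of 1.37 log2 and another probe set with 0.19. Further probe sets of LOC4337457 and LOC4341426, at -0.79 and -0.29, lay below background on all arrays and show no direction.

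No gene is listed for 42 members, and these had smaller differences than the annotated members. Their median excess was 1.19 log2, against 1.60 for the 71 members with 1 gene, and 11 of the 42 exceeded 2 log2, against 30 of the 71. A single gene was listed for 62.3% of members, against 39.2% of all probe sets. IDs ending in _x_at or _s_at made up 28 of the 114 members, and 9990 of all 57258 probe sets. They made up 24 of 30 probe sets high on replicate 2 alone and 2 of 20 on replicate 1 alone.

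Among the members with no gene, OsAffx.14410.1.S1_s_at read 7.82 on replicate 3, against 3.59 and 3.69, at least 7.14-fold higher. Os.428.1.S1_at read 8.89, against 4.77 and 5.07, a 14.1-fold excess, and Os.55321.1.S1_at read 7.05, against 3.80 and 3.56, at least 4.21-fold higher. OsAffx.11145.1.S1_s_at and Os.6764.1.S1_at, both detected on all arrays, read 9.88 and 8.13 on replicate 3, each with a 6.92-fold excess. Os.4683.3.S1_at, singled out after its values were seen, read 8.69, against 5.89 and 6.00, a 6.46-fold excess. It has the same ID stem as the left-out probe set of PDC1, Os.4683.1.S1_at, which read 9.41, against 4.04 and 3.95, but no gene is listed for it. The other 37 members with no gene, the last of these included, had excesses from 1.01 to 2.75 log2.

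Some of the members with no gene came from a run of neighbouring IDs in which many probe sets read highest on replicate 3. The run, chosen after its values were seen, takes in the OsAffx numbers from 10 below the lowest to 10 above the highest of 5 members, 32243 to 32305, and has 96 probe sets, none with a gene listed. OsAffx.32279.1.S1_at read 7.52 on replicate 3, against 6.15 on both other arrays, and OsAffx.32295.1.S1_at read 8.35, against 7.24 and 7.34. The other 3 members had excesses of 1.05 to 1.09 log2. Of the 91 probe sets in the run that are not members, 65 (71.4%) were highest on replicate 3. The share was 35.1% of all non-control probe sets and 20.3% of the 25404 other OsAffx probe sets. The median excess of the 91 was 0.25 log2, against -0.14 for the other OsAffx probe sets, and 24 of the 91 exceeded 0.5 log2. The median was 0.17 when the arrays were quantile normalized once more and 0.94 with the hybridization controls set equal. Among probe sets above background on all arrays the shares were 68.8% of 77 in the run, against 26.1% of 6092 others. The excess in the run was thus mostly small and spread over many probe sets, unlike that on chromosome 6.

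Lists of stress, hormone, nutrient, clock, division and photosynthesis genes held 3 readings over 1 log2. Over 12 lists with 118 genes on the array, 3 genes exceeded 1 log2, namely PDC1 and DREB1A, which the rule leaves out, and WRKY76. That is 2.54%, against 0.335% of all genes, and 10 exceeded 0.5 log2 (8.47%), against 358 of all genes (2.00%). The lists were drawn up with earlier results known, so these shares are no independent evidence. Excesses between 0.5 and 1 log2 were seen in ADH2 (0.86), an alcohol dehydrogenase, and TPP7 (0.61) and TPP1 (0.85), trehalose-6-phosphate phosphatases. The others were HSFB2A (0.82), a heat stress transcription factor, HSP17.4 (0.74), a small heat shock protein, and the JAZ repressors TIFY11B (0.53) and TIFY11E (0.51). In TPP7 replicates 1 and 2 read 5.35 and 6.22, further apart than its excess. In TIFY11E they read 5.12 and 5.61, apart by nearly its excess, and in the other genes by less than theirs. By list, over 1 log2 were 1 of 9 low oxygen and fermentation genes (median excess 0.18), 1 of 11 cold genes (0.10) and 1 of 6 rapid response transcription factors (0.03). No gene exceeded it among 16 heat shock genes (0.04), 9 of abscisic acid and dehydration (-0.07), 18 of jasmonate and wounding (-0.03), 7 of phosphate starvation (-0.03), 10 of iron deficiency (-0.04), 7 of defence and phytoalexins (-0.16), 7 of the circadian clock (-0.07), 10 of cell division (0.18) and 8 of photosynthesis (-0.21). With the hybridization controls set equal all of these medians were positive, from 0.28 for photosynthesis to 0.82 for cell division, beside 0.55 for all genes. With values below background set to the ceiling, the medians of the heat shock genes and of the rapid response transcription factors were both -0.01. The median of all genes was the same. That value is the difference between the ceilings of replicates 3 and 1, so the floor sets it and it does not describe these genes. The cold median was 0.003 with that floor and 0.006 when quantile normalized once more.

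Markers of the labelled tissue were present, and no marker gene exceeded 1 log2 on replicate 3. All 5 shoot and leaf markers lay above background on all arrays, with summed log2 values of 63.9 on replicate 3, against 64.4 and 65.4. Of 3 shoot meristem markers 2 did so, with sums of 18.5, against 18.8 and 14.5. Grain endosperm markers, 2 of 7 above background on all arrays, summed to 38.8 on replicate 3, against 39.4 and 53.6. Of these, GLUA1, GLUB5, PROLAMIN and RAG2 were high on replicate 2, and GLUA2, WX and GLB1 were closer to level. GLB1, 1 of the 2 above background, read 10.62 on replicate 3, against 10.75 and 10.85. It was matched by its symbol alone and may be a gene other than the endosperm marker, which would also affect the sums. None of 3 aleurone and scutellum markers lay above background on all arrays (sums 11.2, against 11.6 and 11.5). Root markers, 5 of 7 above it, summed to 52.0, against 51.1 and 51.0, and floral markers, 1 of 6 above it, to 28.4, against 27.3 and 28.5. Their part in the high readings of the members was not tested.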

How the data were processed

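Values are log2 probe set values deposited by the authors, for which the submitters' processing notes name RMA and Affymetrix Expression Console without versions. RMA corrects background, gives all arrays the same distribution and combines each set's probes, which removes differences in overall brightness, compresses values near background and can give tied values. The 123 control probe sets of 57381 stayed out of all counts. Array data hold no read depth, and the number of arrays (3) limits the precision.

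Genes came from the platform annotation, only for the 22436 probe sets paired with 1 gene, and all 63 member genes were found by gene ID in the RefSeq table of ASM3414082v1. Its synonyms gave short names and matched the list and marker symbols without locus IDs, so single matches could be wrong genes, and 17823 array genes were placed in its order. As no genome build is named for the array, coordinates are left out. The members and lists were chosen with earlier results of these data known. Given one by one are the 30 member genes with the largest excess, those with a second probe set or a short name, the neighbouring ones, and 5 members with no gene. No test was run: the rule used the values and there is a single group. The rule was run on simulated data with the same small noise for every probe set. That checks only that the code works and cannot show how often real arrays pass the threshold. Python 3.11.15, pandas 2.3.3 and numpy 2.4.6 were used.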

Additional observations from a re-analysis of the deposited data

How the results depend on the processing

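The rule found 114 probe sets and 63 genes. With the hybridization controls set equal it found 1347 probe sets and 720 genes, and the median excess over all probe sets moved from -0.06 to 0.49. Over 1.5 log2 there were 61 probe sets and 40 genes, and over 0.8 log2 199 and 104. Without replicate 1 or without replicate 2 the counts were 177 and 184 probe sets and 84 and 102 genes. The other settings (quantile normalized again, a floor at the background ceiling, no _x_at or _s_at probe sets, against the mean, means above the array median, highest-mean probe set per gene) gave 86 to 143 probe sets and 54 to 79 genes. The members' median excess was 1.52, and was 2.12 with hybridization controls equal, 1.37 with a floor at the ceiling, 1.70 against the mean of replicates 1 and 2, and 1.63 and 1.69 without replicate 1 or 2. Of the other probe sets of member genes, 13 were highest on replicate 3, and 8 when _x_at and _s_at probe sets were left out, which leaves fewer to count, while leaving out replicate 1 or 2 gave 15 and 14. List genes over 1 log2 numbered 3, and 9 with hybridization controls equal, 6 against the mean, and 4 and 6 without replicate 1 or 2. Except where the construction shows it, the cause was not tested. Chosen after seeing the data, a window of 5 genes left 11 of 13 neighbouring member genes, a threshold of 1.5 log2 9, and leaving out _x_at and _s_at probe sets 11. In the run of IDs 63 to 80 probe sets were highest on replicate 3, against 65. Without replicate 3 the rule cannot be applied, and the promoter motif search was not run because no promoter sequences were used here. No paired analysis was possible because there is a single group.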
